A study of Mus musculus with 26 samples.

Results

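The 36 genes described here encode the light-response machinery and the outer segment of the rod photoreceptor, together with Nt5e, which encodes the surface protein CD73 used to sort the cells. They were matched by gene symbol, and all 36 were complete lines among the 25146 complete gene lines of the deposited table. The table held 26 libraries of 3'-end RNA-seq from sorted mouse cells, in 13 groups of 2 libraries. The labels do not say that the 2 libraries of a group came from separate animals or whether animals were pooled, so every p-value measures the spread between these libraries, which may be technical.

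Of the 13 groups 5 came from the retina. Their cells were dissociated from C57BL/6 mice homozygous for EGFP knocked into the BLIMP1 gene, so all 10 retinal libraries carry that allele. At P0, the day of birth, GFP+ cells were sorted. At P4, GFP+ CD73- cells and CD73+ cells were sorted, and at P6 and P10 CD73+ cells were sorted; the labels of the CD73+ groups state no GFP gate. The label of the P0 group states no CD73 gate. The step to P4 CD73- cells therefore changed age within GFP+ cells and also left out CD73+ cells, so age and gate cannot be told apart there. The step to P4 CD73+ cells changed the gate at one age. The steps to P6 and P10 changed age within the CD73+ gate, and P10 against P0 changed age and gate. The other 8 groups were primordial germ cell-like cells (d2 PGCLC) grown from a C57BL/6 and 129 line with Blimp1-mVenus, stella-ECFP and Rosa26-rtTA, intestinal epithelium at E16.5 (GFP+ EPCAM+), P3 and P14 (EPCAM+, BLIMP1-negative), and from the spleen B cells (B220+), blasts (GFP- CD138-), prePB (GFP+ CD138-) and PB (GFP+ CD138+), the last 3 after culture with LPS and IL-4; intestine and spleen carried the same EGFP knock-in. Values are RPM, reads that the authors scaled to a common library total. Retinal libraries held 2.58 to 5.60 M reads, and 3 reads were worth at most 1.16 RPM there, so values near 1 RPM rest on a few reads.

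Rods hold their photopigment in stacked membrane discs of the outer segment. Light activates the pigment, which activates transducin, which in turn drives phosphodiesterase 6 to break down cyclic GMP, so that cyclic GMP-gated channels close. Kinases, arrestin, calcium sensors and guanylate cyclases then end the response and restore cyclic GMP. In the mouse retina most rods are born around birth and build their outer segments over the following weeks, and BLIMP1 is known to act in the young photoreceptor precursors before that.

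All 36 genes had their highest retinal group mean at P10. Summed over the list, they made up 0.262 and 0.268% of the RPM total at P0, 1.05 and 0.925% in CD73- cells at P4, 3.13 and 2.49% in CD73+ cells at P4, 3.38 and 2.99% at P6, and 6.84 and 7.72% at P10. At P10 against P0, 36 of 36 genes were called higher, where 15.8% of all 11704 genes tested were called higher. Nt5e is among the 36, and its protein set the gate at P10, while no such gate is stated at P0. A call needed an adjusted p under 0.05 from a limma fit of log2(RPM + 1) over the 10 retinal libraries, Benjamini-Hochberg adjusted over all genes tested, and a change of at least 1 on the log2 scale. The median log2 fold change of the list was 6.27, against -0.10 over all genes tested. Because these are bulk samples, fewer cells of a type and less RNA per cell cannot be told apart. All 36 passed the filter on low values, and none of them passed it through the P10 libraries alone.

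The genes did not start together. Taking as onset the first group in which both libraries held at least 5 RPM, 20 genes had their onset at P0, among them Rbp3, Impg2, Tulp1, Unc119, Prom1, Rom1, Pdc, Cdhr1, Sag, Pde6g, Rcvrn, Aipl1 and Gnb1. Another 11 followed in CD73- cells at P4, namely Guca1a, Cngb1, Pde6b, Kcnv2, Gucy2e, Cnga1, Gngt1, Rdh12, Impg1, Grk1 and Gnat1. In CD73+ cells at P4 came 3, Fscn2, Pde6a and Gucy2f, and at P6 the last 2, Guca1b and Slc24a1. P0 was the first retinal group, so an onset there means at P0 or before. The 10 cone markers described below summed to 1456 and 1474 RPM at P0, and how far cones added to these onsets was not tested. Gnb1 and Reep6 had lower means at P0, 209 and 10.9 RPM, than in E16.5 intestine, 404 and 723 RPM. For them 5 RPM marks no start particular to rods, nor for Nt5e, with means of 13.3 RPM at P0 and 62.2 RPM in d2 PGCLC. Other genes with onset at P0 also passed 5 RPM outside the retina. Prom1, Unc119 and Rom1 had non-retinal group means of up to 106, 54.5 and 10.5 RPM, against 140, 328 and 184 RPM at P0. The count in a group depends on the 5 RPM limit. Over the alternative limits and scaling the count at P0 ran from 14 to 28, and at 20 RPM the onset of 3 genes fell at P10.

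An onset does not say how far a gene had come, so each group mean was also set against the gene's own P10 mean. The median gene stood at 1.00% of its P10 mean at P0, 6.67% in CD73- cells at P4, 31.6% in CD73+ cells at P4 and 39.9% at P6. Guca1a alone had reached 50% in CD73- cells at P4, at 51.5%. Rbp3 was just short of 50% there, at 49.8% (52.5 and 47.1% in its 2 libraries). In CD73+ cells at P4 a further 9 had reached it, Rbp3, Impg2, Tulp1, Nt5e, Unc119, Prom1, Rom1, Pdc and Cdhr1. The protein of Nt5e set that gate. At P6 came 4 more, Rgs9, Rp1l1, Pde6b and Gucy2e, and 22 genes reached 50% only at P10. The latest were Slc24a1, Guca1b and Gnat1, at 5.33, 3.88 and 3.11% of their P10 means at P6.

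**Figure D1:**
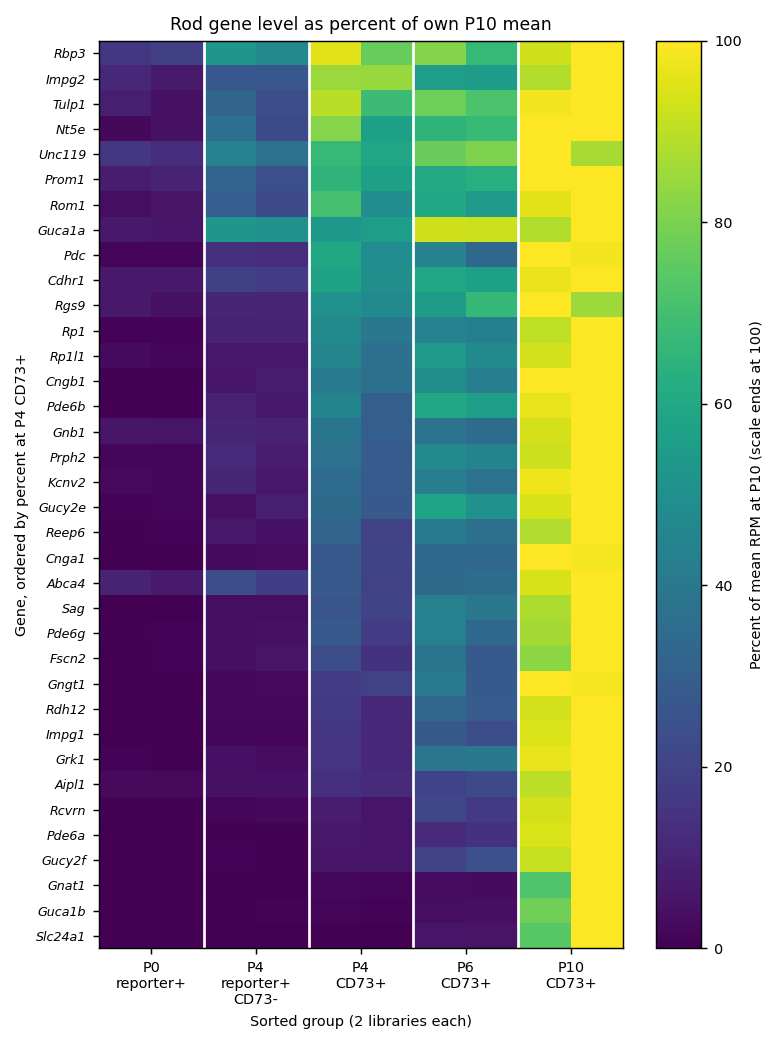
Level of each of the 36 genes in each of the 10 retinal libraries as a percent of that gene's mean RPM at P10 (colour, scale ending at 100), with genes ordered down the page by their percent in CD73+ cells at P4 and 2 libraries per group. The top rows, such as Rbp3 at 86.3%, are bright from CD73+ P4 cells on, and the bottom rows, such as Slc24a1 at 0.36%, stay dark until P10.

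Step by step, most calls came in 3 of the 4 steps. The steps were not alike in length. The step to P6 covered fewer days than those from P0 to P4 and from P6 to P10, and the gate step was at one age. The P6 libraries were also the shallowest of the retina, at 2.73 and 2.58 M reads. In CD73- cells at P4 against P0, 31 of 36 genes were called higher (5.24% of all genes tested), with a median log2 fold change of 1.87 against 0.06 over all genes. In CD73+ against CD73- cells at P4, 30 were called higher (3.43% of all genes), with a median of 1.83 against -0.01. Nt5e, whose protein set that gate, is among the 30. At P6 against CD73+ cells at P4 only 6 were called higher (1.56% of all genes), with a median of 0.60 against 0. At P10 against P6 the count was 23 (3.33% of all genes), with a median of 1.32 against -0.13. Set directly against CD73+ cells at P4, P10 cells were called higher for 26 genes (6.33% of all genes), with a median of 1.66 against -0.13. No member was called lower in any of these comparisons, where 5.77, 2.43, 1.14, 7.62 and 10.8% of all genes tested were, in that order, nor at P10 against P0, where 20.1% were. Both P10 libraries lay above both CD73+ P4 libraries for 35 of 36 genes, as they did for 25.8% of all genes, and Rbp3 was the exception.

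Most of these counts moved little between libraries, but the P6 step did not hold its count. The 6 genes called there were Slc24a1, Gucy2f, Grk1, Rcvrn, Rdh12 and Pde6a. Leaving out 1 library at a time gave 2 to 7 calls, with 2 calls, Slc24a1 and Rcvrn, without replicate 2 of CD73+ P4 cells or without either P6 library. The median of all genes at P10 against P6 was -0.13, and scaling by the median of ratios brought it to 0.00. Over all genes that scaling turned 390 higher and 892 lower calls into 495 higher and 704 lower ones. With it the median of the list at P10 against P6 was 1.46.

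**Figure D2:**
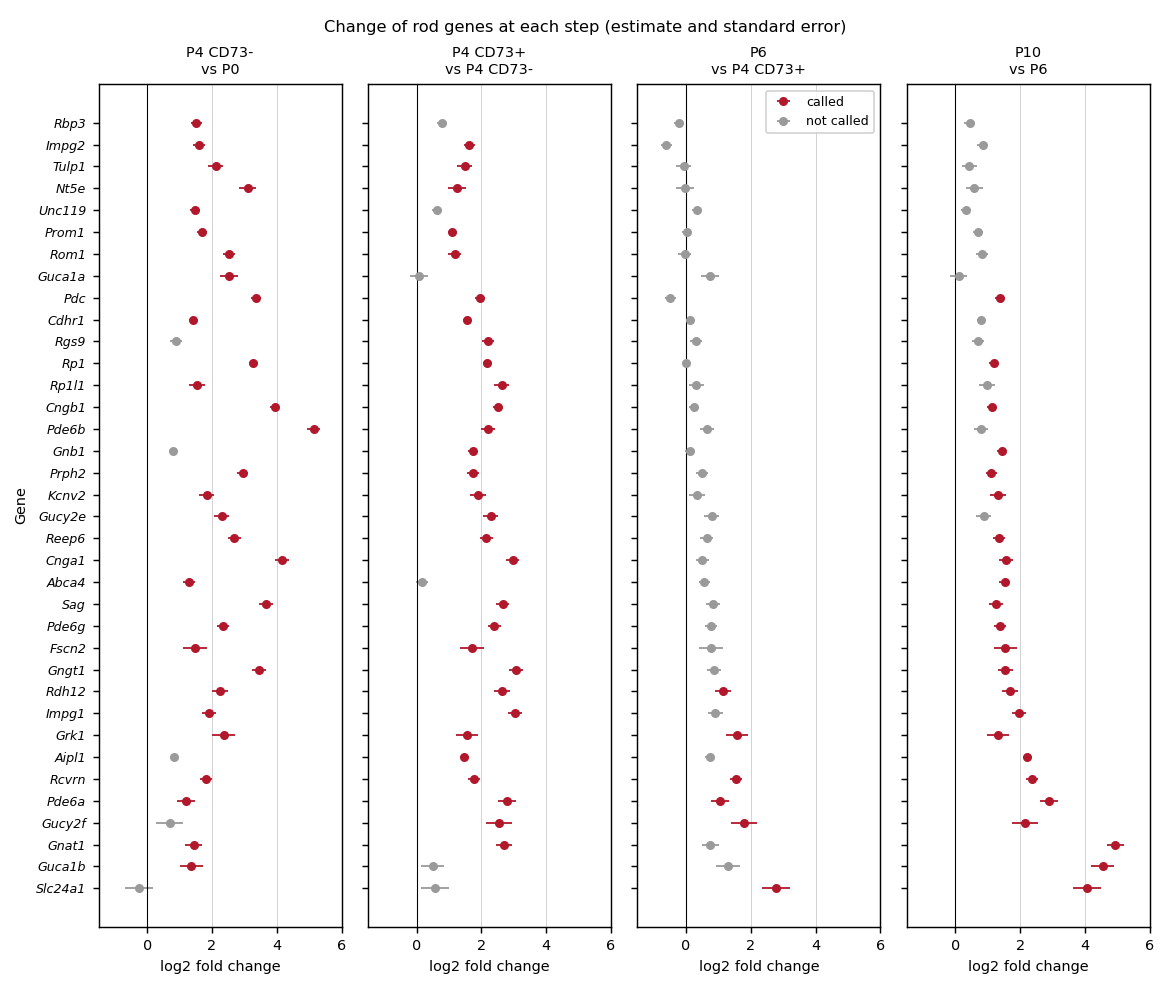
log2 fold change with its standard error for each of the 36 genes at the 4 successive steps, red where called and grey where not, with genes in the order of their percent in CD73+ cells at P4. The P6 step has 6 red points and the P10 step has 23. In the P10 step the points move to the right towards the bottom of the panel, which is partly built in, as order and step share the P10 values.

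Short motifs were looked for in front of the start sites. The RefSeq table (GRCm38.p6) held promoters for 27 of the 36 genes, 30 promoters in all. In the 250 bases before the start, the core TAATCC, to which the photoreceptor factor CRX is known to bind, was found on either strand in 11 of 30 promoters (36.7%), against 6.25% of all 32851 promoters in the table. The sequence TGCTGA, part of the element bound by the rod factor NRL, was in 7 of 30 (23.3%), against 16.1% of all. GTGAAAG, the core bound by BLIMP1, was in 0 of 30, against 3.57% of all. No motif overlapped another in the stretches printed here. The 4 promoters below are given for an early gene (Rbp3), a channel subunit (Cngb1) and a phosphodiesterase subunit (Pde6b) of intermediate timing, and one of the 3 latest genes (Slc24a1). They run 5′ to 3′ on the gene's strand and end at the base before the start, with any of the 3 motifs, or its reverse complement, in capitals.
Rbp3: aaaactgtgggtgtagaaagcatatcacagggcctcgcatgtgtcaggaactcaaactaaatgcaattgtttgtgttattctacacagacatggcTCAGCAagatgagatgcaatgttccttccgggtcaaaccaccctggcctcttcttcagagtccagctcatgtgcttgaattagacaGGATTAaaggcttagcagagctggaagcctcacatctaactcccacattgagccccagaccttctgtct
Cngb1: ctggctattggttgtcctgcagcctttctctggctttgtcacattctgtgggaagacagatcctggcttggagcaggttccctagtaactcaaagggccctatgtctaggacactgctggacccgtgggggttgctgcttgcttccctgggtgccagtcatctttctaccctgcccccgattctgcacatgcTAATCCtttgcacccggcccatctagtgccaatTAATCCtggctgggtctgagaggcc
Pde6b: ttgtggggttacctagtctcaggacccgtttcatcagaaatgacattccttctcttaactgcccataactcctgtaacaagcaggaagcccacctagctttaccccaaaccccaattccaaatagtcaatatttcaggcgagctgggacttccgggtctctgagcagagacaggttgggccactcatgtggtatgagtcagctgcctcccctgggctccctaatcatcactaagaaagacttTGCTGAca
Slc24a1: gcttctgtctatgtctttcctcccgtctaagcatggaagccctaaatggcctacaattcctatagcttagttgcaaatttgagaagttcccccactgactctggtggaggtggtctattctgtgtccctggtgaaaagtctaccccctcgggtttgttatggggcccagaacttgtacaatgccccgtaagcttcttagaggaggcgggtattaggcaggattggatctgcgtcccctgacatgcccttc
They lie at chr14:33953753-33954002 on the plus strand for Rbp3, chr8:95306586-95306835 on the minus strand for Cngb1, chr5:108388123-108388372 on the plus strand for Pde6b and chr9:64951621-64951870 on the minus strand for Slc24a1. Rbp3 held a TAATCC from 69 to 64 bases before the start, on the opposite strand (GGATTA), and a TGCTGA farther out, also as its reverse complement. Cngb1 held a pair of TAATCC on its own strand, from 58 to 53 and from 25 to 20 bases before the start. Pde6b held a TGCTGA from 8 to 3 bases before the start, and the Slc24a1 stretch held none of the 3. A match is a run of letters and no evidence of binding.

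Transducin, the G protein that the pigment activates, had subunits of unlike timing. Gnat1, its rod alpha subunit, stood at 1.13 and 1.86 RPM at P0, 5.72 and 5.62 in CD73- cells at P4, 46.2 and 38.9 in CD73+ cells at P4, 81.2 and 63.9 at P6, and 1689 and 2972 at P10. Both P10 libraries lay far above both P6 libraries, and the P10 libraries differed from each other more than those of any other group. The log2 fold change was 4.94 ± 0.26 (standard error, 2 libraries per group) at P10 against P6, with an adjusted p of 1.74e-08, and 0.75 ± 0.26 at P6 against CD73+ cells at P4, with an adjusted p of 0.12. Gngt1, the rod gamma subunit, had 5.20 and 2.56 RPM at P0, 45.7 and 55.1 in CD73- cells at P4, 410.1 and 451 in CD73+ cells at P4, 949 and 657 at P6, and 2338 and 2273 at P10. No 2 neighbouring groups overlapped, and the step between the gates at P4, of 3.07 ± 0.22 with an adjusted p of 3.42e-07, was the largest of the list. Gnb1, the beta subunit, which many cell types use, had 217 and 202 RPM at P0, 373 and 361 in CD73- cells at P4, 1399 and 1067 in CD73+ cells at P4, 1373 and 1271 at P6, and 3356 and 3819 at P10. Its libraries overlapped between CD73+ P4 cells and P6, and P10 exceeded P6 by 1.44 ± 0.14 with an adjusted p of 5.04e-06. In CD73+ cells at P4, Gnb1, Gngt1 and Gnat1 stood at 34.4, 18.7 and 1.83% of their P10 means.

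Phosphodiesterase 6 had one late subunit among its 3. Pde6a, the alpha catalytic subunit, had 0.453 and 0.233 RPM at P0, 2.5 and 1.69 in CD73- cells at P4, 22.2 and 18.3 in CD73+ cells at P4, 38.4 and 47.6 at P6, and 306 and 344 at P10. Every group lay above the one before it without overlap. The log2 fold change was 3.95 ± 0.28 at P10 against CD73+ cells at P4, with an adjusted p of 8.98e-08, and 2.78 ± 0.28 between CD73+ and CD73- cells at P4, with an adjusted p of 9.44e-06. The call of Pde6a in CD73- cells at P4 against P0, 1.197 ± 0.282, was lost without replicate 1 of the P4 group (adjusted p = 0.0696), and its P6 call without any one of the 6 libraries of CD73+ cells (adjusted p of 0.0926 to 0.283). Pde6b, the beta catalytic subunit, came earlier, with 205 and 154 RPM in CD73- cells at P4 against 5.43 and 3.03 RPM at P0. That step, of 5.13 ± 0.21 with an adjusted p of 2.33e-10, was the largest of any member between those groups, and Pde6b then stood at 37.7% of its P10 mean in CD73+ cells at P4, where Pde6a stood at 6.21%. Pde6g, the inhibitory gamma subunit, had 46.4 and 51.9 RPM at P0, 247 and 257 in CD73- cells at P4, 1675 and 1064 in CD73+ cells at P4, 2603 and 2009 at P6, and 5189 and 6790 at P10. Its groups did not overlap, and P10 exceeded CD73+ cells at P4 by 2.15 ± 0.19, with an adjusted p of 6.76e-07.

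The channel subunits and the exchanger also parted. Cnga1, the alpha subunit of the rod cyclic GMP-gated channel, had 0.679 and 1.86 RPM at P0, 35.5 and 40.9 in CD73- cells at P4, 354 and 260.0 in CD73+ cells at P4, 430.4 and 433 at P6, and 1295 and 1256 at P10. Each group lay above the one before, and the step between the gates at P4 was 2.96 ± 0.21, with an adjusted p of 3.42e-07. Cngb1, the beta subunit, whose promoter with a pair of TAATCC is printed above, was further along, at 39.1% of its P10 mean in CD73+ cells at P4 where Cnga1 stood at 24.1%. Slc24a1, the sodium, calcium and potassium exchanger that removes calcium from the rod outer segment, had 0 and 0.932 RPM at P0, 0.357 and 0 in CD73- cells at P4, 0.943 and 0.529 in CD73+ cells at P4, 11.3 and 10.4 at P6, and 151 and 258 at P10. All 6 libraries of the first 3 groups lay under 1 RPM, and those of P6 and then P10 stood clear of them. Its change at P10 against CD73+ cells at P4, 6.85 ± 0.43 with an adjusted p of 2.51e-08, was the largest of the list. At P6 against CD73+ cells at P4 it was 2.79 ± 0.43, with an adjusted p of 0.00154. Log2 changes from values this low are understated by the pseudocount of 1 RPM.

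**Figure D3:**
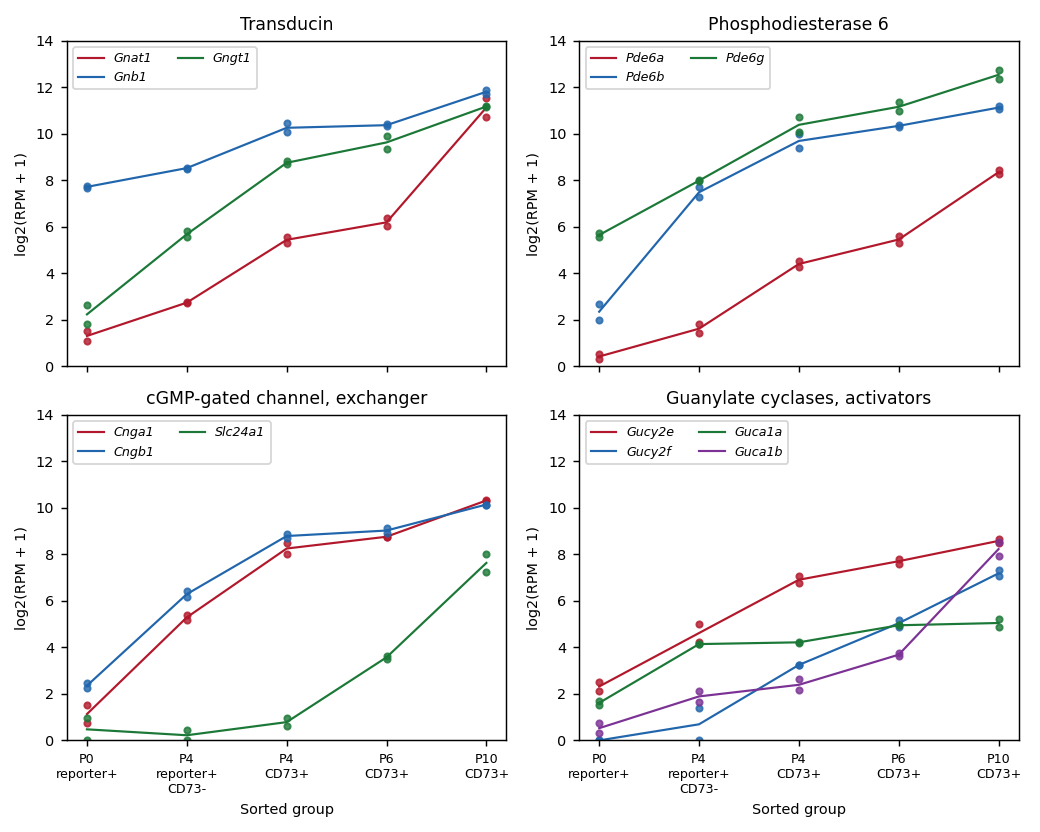
log2(RPM + 1) of transducin, phosphodiesterase 6, channel and exchanger, and cyclase and activator genes across the 5 retinal groups, with a point per library and a line through the group means. Gnat1, Pde6a and Slc24a1 run below the other genes of their panels until P6 and Guca1b runs below Guca1a, and their lines are the steepest of their panels between P6 and P10.

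Among the 5 genes of shut-off and recovery, 4 were called higher at P10 against CD73+ cells at P4. Sag encodes rod arrestin, which caps the activated pigment. Its values were 20.1 and 37.5 RPM at P0, 353 and 363 in CD73- cells at P4, 2560 and 1988 in CD73+ cells at P4, 4241 and 3875 at P6, and 8544 and 10909 at P10. The groups did not overlap, and P10 exceeded CD73+ cells at P4 by 2.10 ± 0.21, with an adjusted p of 2.54e-06. Rcvrn encodes recoverin, the calcium sensor that restrains the pigment kinase. It had 23.8 and 19.1 RPM at P0, 65.7 and 91.1 in CD73- cells at P4, 305 and 233 in CD73+ cells at P4, 883 and 689 at P6, and 3795 and 4321 at P10. Every step was called, and its P6 step of 1.55 ± 0.18, with an adjusted p of 1.46e-04, was called in every alternative run. Pdc, which encodes phosducin, a binder of the transducin beta and gamma subunits, took another course. It had 134 and 117 RPM at P0, 1332 and 1234 in CD73- cells at P4, 5563 and 4538 in CD73+ cells at P4, 4143 and 3123 at P6, and 9498 and 9142 at P10. Both P6 libraries lay below both CD73+ P4 libraries, with a log2 fold change of -0.48 that did not pass the test (adjusted p = 0.101). P10 against CD73+ cells at P4 gave 0.89 ± 0.16, under the minimum of 1, although the adjusted p was 4.38e-04, while median-of-ratios scaling gave 1.03 and leaving out replicate 1 of CD73+ P4 cells gave 1.04, both over it. Grk1, the pigment kinase, and Rgs9, which speeds transducin's return to rest, stood at 13.1 and 49.0% of their P10 means in CD73+ cells at P4. The call of Rgs9 at P10 against CD73+ cells at P4, 1.01 ± 0.18, was lost at 0.96 without replicate 2 of CD73+ P4 cells and at 0.80 without replicate 1 of P10. The call of Grk1 at P10 against P6, 1.32 ± 0.35, was lost when any one of those 4 libraries was left out, with adjusted p of 0.0618 to 0.107, and its call between the gates at P4, 1.55 ± 0.35, was lost without replicate 2 of CD73- cells (0.0811) or replicate 1 of CD73+ cells (0.082).

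Cyclic GMP synthesis rests on 2 guanylate cyclases, Gucy2e and Gucy2f, and on the calcium sensors encoded by Guca1a and Guca1b that activate them. The sensors lay far apart in time. Guca1a had 2.26 and 1.86 RPM at P0, 16.79 and 16.496 in CD73- cells at P4, 17.2 and 18.0 in CD73+ cells at P4, 30.0 and 29.8 at P6, and 28.6 and 36 at P10. CD73+ cells at P4 exceeded CD73- cells by 0.08 ± 0.27, with an adjusted p of 0.912, and the P6 libraries fell between the P10 libraries. Guca1b had 0.679 and 0.233 RPM at P0, 2.14 and 3.37 in CD73- cells at P4, 5.19 and 3.44 in CD73+ cells at P4, 11.3 and 12.4 at P6, and 239 and 373 at P10. Its log2 fold change at P10 against P6 was 4.54 ± 0.36, with an adjusted p of 5.17e-07, and both P10 libraries stood far above all others. Its smaller step in CD73- cells at P4 against P0, 1.37 ± 0.36, was lost without replicate 2 of either group (adjusted p = 0.0901 and 0.0721). Between the cyclases, Gucy2e had 3.39 and 4.66 RPM at P0, 17.5 and 31.5 in CD73- cells at P4, 132 and 107 in CD73+ cells at P4, 223 and 193 at P6, and 359 and 405 at P10. Its groups did not overlap, and it stood at 54.5% of its P10 mean at P6. Gucy2f was listed at 0 in both P0 libraries, had 8.48 and 8.46 RPM in CD73+ cells at P4 and 132 and 158 RPM at P10, and stood at 22.1% of its P10 mean at P6.

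The 7 genes of outer segment structure were all called higher in CD73- cells at P4 against P0 and all called higher in CD73+ against CD73- cells at P4. None was called at P6 against CD73+ cells at P4, and 4 were called at P10 against CD73+ cells at P4, Prph2, Rp1, Rp1l1 and Fscn2. Rom1, which encodes a disc rim protein and partner of Prph2, had 153 and 214 RPM at P0, 1199.9 and 912 in CD73- cells at P4, 2824 and 1962 in CD73+ cells at P4, 2398 and 2174 at P6, and 3852 and 4168 at P10. The P6 libraries lay between those of CD73+ P4 cells, and P10 exceeded CD73+ P4 cells by 0.77 ± 0.19 with an adjusted p of 0.00595, short of the minimum of 1 but at 1.03 without replicate 1 of CD73+ P4 cells. Prom1 encodes a membrane glycoprotein at the site of disc formation. It had 127 and 152 RPM at P0, 519 and 390.5 in CD73- cells at P4, 1032 and 905 in CD73+ cells at P4, 959 and 996 at P6, and 1595 and 1583 at P10. Its change at P10 against CD73+ cells at P4 was 0.72 ± 0.15, with an adjusted p of 0.00153, and 424 exonic bases are shared with the antisense gene Gm16401 in GENCODE, whose reads cannot be told apart if the counting ignored strand. Cdhr1, a cadherin at the base of the outer segment, had 163 and 161 RPM at P0, 459.8 and 415 in CD73- cells at P4, 1384 and 1191 in CD73+ cells at P4, 1434 and 1356 at P6, and 2331 and 2475 at P10. Its P10 libraries stood clear of the others, at 0.90 ± 0.13 above CD73+ P4 cells with an adjusted p of 5.14e-05, at 1.05 after median-of-ratios scaling and at 1.01 without replicate 1 of CD73+ P4 cells. Fscn2, an actin bundler, had 0.226 and 0.699 RPM at P0, 2.68 and 3.37 in CD73- cells at P4, 15.3 and 9.52 in CD73+ cells at P4, 24.9 and 18.2 at P6, and 53.5 and 75.4 at P10. Prph2, the disc rim protein, Rp1, a microtubule protein of the outer segment axoneme, and its relative Rp1l1 stood at 33.2, 43.7 and 41.1% of their P10 means in CD73+ cells at P4. Fscn2 had the largest change of the group at P10 against CD73+ cells at P4, 2.30 ± 0.36 with an adjusted p of 1.55e-04. Between the gates at P4, the call of Rom1 was lost at 0.97 without replicate 2 of CD73- cells and at 0.91 without replicate 1 of CD73+ cells, that of Prom1 at 0.90 without the first of these, and that of Fscn2 without the second, with an adjusted p of 0.0836. At P10 against P6, Fscn2 was lost without replicate 2 of P10 or of P6 (adjusted p = 0.108 and 0.0738) and Prph2 at 1.00 without replicate 2 of P10.

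The 3 genes of retinoid handling differed in time. Rbp3 encodes the retinoid-binding protein of the space around the outer segments, and its promoter is printed above. It had 936 and 1097 RPM at P0, 3064 and 2752 in CD73- cells at P4, 5582 and 4494 in CD73+ cells at P4, 4746 and 3902 at P6, and 5408 and 6274 at P10. It was the only member whose CD73+ P4 and P10 libraries overlapped, with a log2 fold change of 0.22 ± 0.16 and an adjusted p of 0.339. Under quantile normalization that value was -0.22. Rdh12, a retinol dehydrogenase, had 1.81 and 4.08 RPM at P0, 16.1 and 18.0 in CD73- cells at P4, 134 and 91.8 in CD73+ cells at P4, 264 and 228 at P6, and 742 and 852 at P10. Its groups did not overlap, and P10 exceeded CD73+ P4 cells by 2.83 ± 0.24 with an adjusted p of 4.68e-07. Abca4, the disc transporter that clears retinoid, differed little between the gates at P4, with 254 and 179.6 RPM in CD73+ cells and 214 and 170.0 RPM in CD73- cells, and its log2 fold change there was 0.16 ± 0.18 with an adjusted p of 0.665.

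The 2 proteoglycans of the interphotoreceptor matrix also differed in time. Impg1 had 0.735 and 0.932 RPM at P0, 5.74 and 6.00 in CD73- cells at P4, 64.6 and 47.9 in CD73+ cells at P4, 115 and 96.8 at P6, and 388 and 434 at P10. Every group lay above the one before, with 3.04 ± 0.22 between the gates at P4 (adjusted p = 4.05e-07) and 1.95 ± 0.22 at P10 against P6 (adjusted p = 1.98e-05). Impg2 had 72.2 and 45.9 RPM at P0, 177 and 177 in CD73- cells at P4, 549 and 548 in CD73+ cells at P4, 363 and 354 at P6, and 571 and 721 at P10. Both P6 libraries lay below both CD73+ P4 libraries, with a log2 fold change of -0.61 and an adjusted p of 0.062. P10 exceeded CD73+ P4 cells by 0.23 ± 0.17, with an adjusted p of 0.359. Impg2 thus stood at 84.8% of its P10 mean in CD73+ cells at P4, where Impg1 stood at 13.7%.

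Of the 4 trafficking and chaperone genes, Aipl1 and Reep6 were called higher at P10 against CD73+ cells at P4. Aipl1, a chaperone of phosphodiesterase 6, had 53.9 and 51.9 RPM at P0, 92.2 and 97.7 in CD73- cells at P4, 277 and 255 in CD73+ cells at P4, 419 and 466 at P6, and 1867 and 2283 at P10. Its groups did not overlap and its replicates lay close, with 2.22 ± 0.13 at P10 against P6 and an adjusted p of 5.60e-08. Reep6, which shapes endoplasmic reticulum and vesicle traffic in rods, had 9.96 and 11.9 RPM at P0, 85.4 and 67.3 in CD73- cells at P4, 430.1 and 269 in CD73+ cells at P4, 560.3 and 499 at P6, and 1190.1 and 1513 at P10. It rose by 1.98 ± 0.20 at P10 against CD73+ P4 cells, with an adjusted p of 2.13e-06. Unc119, which carries transducin alpha through the cell, had 367 and 289 RPM at P0, 995 and 837 in CD73- cells at P4, 1506 and 1326 in CD73+ cells at P4, 1733 and 1813 at P6, and 2543 and 1948 at P10. Its groups did not overlap, but its P10 change against CD73+ P4 cells, 0.66 ± 0.16 with an adjusted p of 0.00513, was under the minimum of 1. Tulp1, a photoreceptor transport protein, had 26.5 and 14 RPM at P0, 101 and 74.6 in CD73- cells at P4, 279.5 and 213 in CD73+ cells at P4, 243 and 223 at P6, and 305 and 317 at P10. Its P6 libraries lay between those of CD73+ P4 cells, and P10 exceeded CD73+ P4 cells by 0.35 ± 0.23, with an adjusted p of 0.279.

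The remaining 2 genes are single members of their role. Kcnv2, a modulatory potassium channel subunit of photoreceptors, had 7.92 and 4.89 RPM at P0, 32.7 and 18.7 in CD73- cells at P4, 104 and 86.8 in CD73+ cells at P4, 128 and 112 at P6, and 291 and 307 at P10. Its groups did not overlap, and P10 exceeded CD73+ P4 cells by 1.64 ± 0.24 with an adjusted p of 9.93e-05. Nt5e, the gene of the sorted protein, had 8.37 and 18.2 RPM at P0, 145 and 89.2 in CD73- cells at P4, 323 and 225 in CD73+ cells at P4, 258 and 269 at P6, and 396 and 396 at P10. The P4 groups were sorted on its protein, so its difference between them was set by the gate and is no separate result. Nt5e was called there at 1.24 ± 0.27, with an adjusted p of 0.00674, and its transcript was present on both sides of the gate. That call was lost at 0.89 without replicate 2 of CD73- cells and at 0.98 without replicate 1 of CD73+ cells. At P10 against CD73+ cells at P4 its change was 0.55 ± 0.27, with an adjusted p of 0.143.

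Outside the retina the genes of the list were low, with few exceptions. It made up 0.0171 to 0.125% of the RPM total in the 16 non-retinal libraries. Both P10 libraries lay above all 16 for 36 of 36 genes, as they did for 29.1% of the 14131 genes tested over all 26 libraries. Against each of the 8 groups in a fit of all 26 libraries, taking the largest of the 8 p-values, 35 of 36 genes were called higher at P10 (16.8% of all genes tested). The highest non-retinal library held under 20 RPM for 30 genes and under 2 RPM for 15, and Fscn2 was listed at 0 in all 16. Rdh12 had 26.9 and 36.6 RPM in B cells and 9.39 and 23.7 RPM in blasts. Its retinal values were 1.81 and 4.08 RPM at P0 and 16.1 and 18.0 RPM in CD73- cells at P4.

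In all, 5 genes reached 50 RPM in a non-retinal library. Reep6 was the highest, with 700.2 and 747 RPM in E16.5 intestine, and its P10 level exceeded that group by 0.89 ± 0.39, with an adjusted p of 0.107. That made it the exception to the 35 calls, and its levels were also 354 and 357 RPM in P3 intestine and 231 and 347 RPM in P14 intestine. Gnb1 reached 426 RPM, Prom1 126 RPM in a P14 intestine library, Nt5e 69.9 RPM in a d2 PGCLC library and Unc119 58.8 RPM in a B cell library. For these 4 the smallest P10 excess over any group was 3.15 ± 0.15, 3.93 ± 0.36, 2.66 ± 0.43 and 5.33 ± 0.21, with adjusted p of 6.51e-14, 5.00e-09, 2.41e-05 and 5.08e-15. The P10 cells were sorted on the protein of Nt5e, so its excess is no separate result, and it is among the 35 calls.

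**Figure D4:**
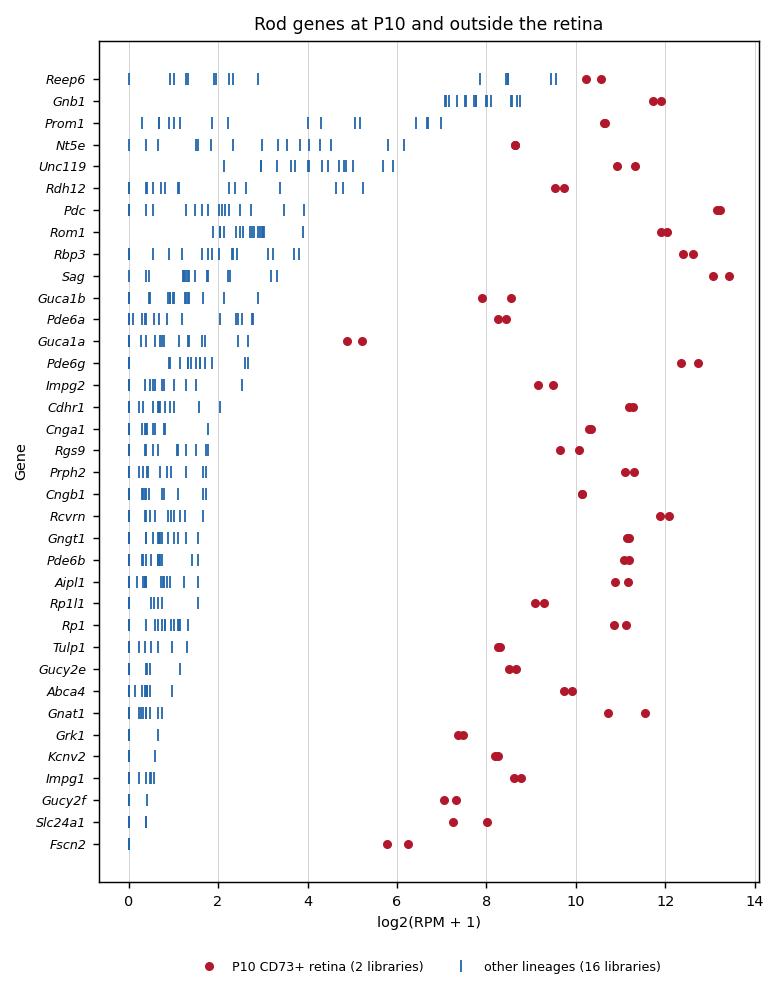
log2(RPM + 1) of each of the 36 genes in the 2 CD73+ P10 retinal libraries (red points) and the 16 libraries of other lineages (blue ticks), with genes ordered by their highest non-retinal library. The red points lie to the right of all ticks in every row, and Reep6, at up to 747 RPM outside the retina, has the narrowest gap.

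Other genes of the same machinery were also followed. Of 23 further rod and outer segment genes, 22 were measured and tested. Of these 12 were called higher in CD73- cells at P4 against P0 (5.24% of all genes tested) and 14 in CD73+ against CD73- cells at P4 (3.43%). There were 4 at P6 against CD73+ cells at P4 (1.56%) and 8 at P10 against P6 (3.33%), with none called lower. At P10 against CD73+ cells at P4 the count was 10 (6.33% of all genes tested). Among them were Rgs9bp, the anchor of Rgs9, at 2.72 ± 0.25 and Mpp4, a scaffold of photoreceptor synapses, at 2.52 ± 0.19, with adjusted p of at most 8.64e-07. The photoreceptor transcription factors followed another course. Over the 9 measured, CD73- cells at P4 against P0 gave 3 higher calls, Nr2e3 at 4.15 ± 0.16, Nrl at 2.90 ± 0.14 and Crx at 1.33 ± 0.21. At P10 against CD73+ cells at P4 only Esrrb was called higher, at 5.90 ± 0.51, while Prdm1, which encodes BLIMP1, and Otx2 were called lower, at -1.75 ± 0.12 and -1.14 ± 0.12.

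Markers of other cells moved with some of these steps, and their part in the results was not tested. Called higher were 5.24% of all genes tested in CD73- cells at P4 against P0 and 3.33% at P10 against P6. Against CD73+ P4 cells it was 1.56% at P6 and 6.33% at P10. Called lower were 2.43% between the gates at P4 and 7.62% at P10 against P6. At P10 it was 10.8% against CD73+ P4 cells and 20.1% against P0. Of 10 bipolar cell markers, 8 were called higher at P6 against CD73+ cells at P4 and 9 at P10 against CD73+ cells at P4, with sums of 1695 and 1445 RPM at P10, 1198 and 1273 at P6, and 362 and 321 in CD73+ cells at P4. The 10 progenitor and cycling markers summed to 33.8 and 37.9 RPM at P10, against 3379 and 3099 RPM at P0, and all 10 were called lower. In CD73+ cells at P4 they summed to 527 and 1026 RPM, against 399 and 879 RPM in CD73- cells. Of 7 endothelial and microglial markers 5 were tested, and 4 were called lower in CD73+ than in CD73- cells at P4, with sums of 12.5 and 10.5 RPM against 64.2 and 183 RPM. Of 10 cone markers 9 were tested, and at P10 against P6 Opn1mw and Pde6c were called higher, 1 was called lower and 6 were not called, with a median log2 fold change of 0.31. Their sum was 2467 and 1935 RPM at P10, against 3935 and 3779 RPM at P6, and most of that difference lay in the 1 marker called lower, Gngt2, with 280.3 and 151 RPM at P10, against 2016 and 1657 RPM at P6. Of 8 Müller glia markers 7 were tested, and 5 were called lower at P10 against P6, as were 4 of the 7 tested among 12 amacrine, horizontal and ganglion cell markers. The 6 immediate early and stress genes summed to 608 and 494 RPM in CD73- cells at P4, against 360 and 191 RPM at P0, with 4 called higher. The 9 pigment epithelium markers summed to 6.45 to 29.5 RPM over the 10 retinal libraries. Rpe65 was at 0 in both libraries of 4 of the 5 groups. Tyrp1 had 16.3 and 17.2 RPM in CD73+ cells at P4, and Dct 18.2 and 8.25 RPM in CD73- cells at P4. Of the 3 tested, 1 was called higher in CD73- cells at P4 against P0. In CD73+ against CD73- cells at P4 1 was called lower, and at P10 against CD73+ cells at P4 2 were called lower.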

How the data were processed

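Libraries of 3'-end RNA-seq from sorted mouse cells were read from 1 table of 26 columns. Its values are a signal in RPM, computed and deposited by the authors. The submitters' processing notes list mm10 as the build and, among the tools, TopHat 1.4.1 and Bowtie 1.0.1, cutadapt 1.11 and also Cufflinks 2.2.0; no source used here states how reads of shared or antisense sequence were assigned. Of 26310.0 lines, 1164 (92 of them spike-ins) held values not under their header and were left out, which is 4.09% of the gene lines; no listed member was among them. The value of 1 read gave depths of 1.72 to 6.04 M reads. Per library 73.2 to 86.7% of low values were whole reads, with a tolerance of 0.02 read, so no count model was used. The lists and the members were chosen with earlier results of these data known.

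Genes that reached 5 RPM in 2 or more libraries were kept, and their log2(RPM + 1) was fitted with limma 3.58.1 (trend) in R 4.3.3, once over the 10 retinal libraries and once over all 26, with Benjamini-Hochberg adjustment over all genes tested; fold changes of low genes are understated by the pseudocount. No sample was dropped or imputed. The fit was tested on simulated data of 11704 genes for P10 against CD73+ cells at P4. It recovered 89% of 200 genes changed by 2 on the log2 scale, with 8 false calls among the unchanged genes. The simulated noise was normal and independent, with a spread set by expression level alone, so it lacked the differences in spread between real genes of like level. Descriptions and figures used Python 3.11.15, pandas 2.3.3, NumPy 2.4.6 and matplotlib 3.10.9. Named in full were, in each role, the member with the largest change at P10 against CD73+ cells at P4 and the one with the highest P10 mean, every member not called there, up to 5 members with the largest called change between the gates at P4, and members at 50 RPM or more in a non-retinal library. From the other pathway lists up to 4 genes each way were named. Some results of these lists are not reported here. Other members named with values were chosen after their values were seen. Alternatives were other pseudocounts, filters, normalizations, fits and thresholds, a replicate block and each library left out.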

Additional observations from a re-analysis of the deposited data

How the results depend on the processing

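The count of members called at P6 against CD73+ cells at P4, 6 as reported, was 2 with a pseudocount of 0.1 RPM, 2 without the filter, 3 without the limma trend, 11 on the adjusted p alone, and 3 with both P4 libraries numbered 2 left out, an alternative chosen after seeing the data; leaving out each library in turn gave 2 to 7. With each library left out in turn the counts ran from 30 to 32 for CD73- cells at P4 against P0, 26 to 30 for CD73+ against CD73- cells at P4, 20 to 24 for P10 against P6 and 25 to 29 for P10 against CD73+ cells at P4, and stayed at 36 for P10 against P0 and at 35 for P10 against the other lineages. Over the other alternatives these counts ran from 26 to 34, 27 to 32, 18 to 31 and 25 to 32, in the same order, and those of 36 and 35 did not move. At an onset limit of 1 RPM, 6 genes began in CD73- cells at P4, 1 in CD73+ cells at P4 and 1 at P6. At 20 RPM, 5 began in CD73+ cells at P4, 4 at P6 and 3 at P10. Taking 25% in place of 50% of the highest group mean, 8 genes reached it in CD73- cells at P4, 9 at P6 and 7 at P10, and with median-of-ratios scaling none (0) reached 50% in CD73- cells at P4. Rbp3 at P10 against CD73+ cells at P4 turned to -0.22 under quantile normalization; the cause was not tested. Over the single-gene values 3812 kept their direction and their side of the threshold, 87 no longer passed it, 11 newly passed it and 1 reversed. The correlation of replicate differences was 0.284 between CD73- and CD73+ cells at P4 and -0.0307 to 0.0517 between the other pairs of retinal groups, so the numbers were not taken to pair the libraries over all 5 groups; whether those of the P4 groups do was not tested. With the replicate block the counts of the 4 steps were 31, 30, 6 and 23, with 26 at P10 against CD73+ cells at P4 and 36 at P10 against P0, and no call of a single gene changed. With 2 libraries a group and 3 reads worth up to 1.16 RPM, changes of genes near that level, such as Slc24a1 before P6, were not detectable.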

Other observations

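The traces of rod transcripts outside the retina were uneven between libraries. Summed over the 30 genes whose highest non-retinal library held under 20 RPM, they came to 68.3 RPM in replicate 1 and 30.7 RPM in replicate 2 of E16.5 intestine, which is 0.109 and 0.0488% of the mean P10 sum of the same genes. Pdc, Rbp3 and Sag, which are among the most abundant of them at P10, had 14.2, 11.9 and 8.08 RPM in replicate 1 of E16.5 intestine, and 0, 0 and 0 RPM in replicate 1 of d2 PGCLC. The highest sum was in replicate 2 of B cells, at 79.0 RPM (0.126%), with 40.6 RPM (0.0647%) in replicate 1.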
